A study of Mus musculus with 7 samples.

Results

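Chaperone genes were examined in patch-seq libraries of estrogen receptor alpha (ERα, gene Esr1) neurons of the medial preoptic area (MPA), a hypothalamic region that takes part in the control of body temperature. The members were the 88 of 24062 gene symbols that name heat shock proteins, their cytosolic relatives and the factors that switch them on. They comprised symbols beginning with Hspa, Hspb, Hspd, Hspe, Hsph, Hsp90, Dnaja, Dnajb or Dnajc, together with Bag1 to Bag6, the CCT ring genes with Tcp1, Hsf1 and Hsf2, and without Hspa5 and Hsp90b1 of the endoplasmic reticulum. By the study's description, slices came from female ERα-ZsGreen mice aged 10 to 14 weeks, a line in which a green protein reports Esr1 expression. ZsGreen+ neurons were recorded while the slice was warmed by 5 °C, from 25 °C to 30 °C. Neurons whose firing responded to warmth gave 4 temperature-responsive samples and neurons that did not gave 3 non-responsive samples, each a pool of 2 neurons. Both groups carried the reporter and both were warmed. The comparison was therefore between samples grouped by firing response, and not between warmed and unwarmed tissue. Where the labels name no mouse for a sample, p-values measure the spread between these samples only.

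Molecular chaperones bind unfolded protein and keep it from clumping until it folds. HSP70 proteins hold and release short stretches of a client in a cycle that burns ATP, with DnaJ (HSP40) proteins delivering the client and HSP110 and BAG proteins releasing the nucleotide. HSP90 finishes the folding of kinases and steroid receptors, ERα among them, with the help of co-chaperones. The CCT ring encloses actin and tubulin, which prefoldin hands to it, and small heat shock proteins hold damaged protein without ATP. In heat-stressed cells the factor HSF1 binds heat shock elements in promoters and raises the inducible members of each family. Neurons depend on the constitutive members and mount a muted heat shock response.

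Totals ranged from 1914497 to 2814360 counts in temperature-responsive samples and from 3309361 to 5125280 in non-responsive samples, and more genes were detected in the former (19852 to 21177) than in the latter (17818 to 19820). Neither range overlapped between groups. Levels are given as CPM, the count scaled to a common total per sample. A floor of 3 counts, which covers counting error only, stood at 0.585 to 1.57 CPM. Esr1 itself had 10 to 27 counts per sample, and its difference did not pass the test (log2 fold change 0.55, SE 0.38, edgeR adjusted p = 0.286). The slices came from females only, by the study's description. The Y-linked gene Ddx3y nevertheless had 684 to 1150 counts in each sample. Xist, which is transcribed in cells that silence an X chromosome, had 2 to 14. These counts are at odds with the described sex, and the reason was not tested. Ddx3y was also higher in temperature-responsive samples without overlap (log2 fold change 0.66, SE 0.11, edgeR adjusted p = 0.000196). The summed level of 5 oligodendrocyte markers was 2442 to 3588 CPM, beside 2330 to 2727 CPM for 5 neuronal markers, so the libraries held glial as well as neuronal transcripts. The 5 endothelial markers summed to 63.6 to 189.4 CPM in temperature-responsive and 12.1 to 40.2 CPM in non-responsive samples, the 5 microglial markers to 257.5 to 309.1 and 315.7 to 332.8 CPM, and 1122 olfactory receptor genes to 327.7 to 797.1 and 46.2 to 252.3 CPM, all 3 without overlap between groups. Astrocyte, oligodendrocyte, ependymal and neuronal sums overlapped. None of the markers in the 6 cell type lists was at 0 in every sample. The part of depth, genes detected and these markers in the chaperone differences was not tested beyond the fits named below, and fewer cells of a type cannot be told apart from less RNA per cell.

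Promoter sequence is shown for the members that carry the HSF1 motif. Both groups were warmed, so the comparison does not measure induction by warmth. A heat shock element was searched as 3 alternating GAA and TTC units, each separated by 2 bases, on both strands of RefSeq promoter windows (GRCm38.p6, 250 bases before to 50 after each annotated start). The 88 members included 71 genes with at least 1 window. It was present in 6 of 91 windows of members (6.59%) and in 198 of 32851 windows of all genes (0.603%). By gene it was present in 4 of 71 members and in 179 of 27025 genes. The 4 member genes that had it were Hspd1, Hspe1, Dnajb6 and Hsph1. The windows are not independent, since Dnajb6 and Hsph1 each had overlapping windows that held the same site. The pair Hspd1 and Hspe1, which encode the mitochondrial chaperonin and its lid, are divergent neighbours and share 1 element, 89 to 72 bases before the start of Hspe1. Capitals mark the alternating units with the bases between them.
Hspe1 (chr1:55088053-55088082, plus strand): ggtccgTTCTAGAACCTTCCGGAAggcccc
Dnajb6 (chr5:29735844-29735873, plus strand): agctccgaGAATCTTCCGGAAcgctagacc
Hsph1 (chr5:149636287-149636316, minus strand): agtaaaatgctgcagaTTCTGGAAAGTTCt
None of these 4 genes passed the main test between the groups, and Dnajb6 did with an offset for GC content, as given with each below. A shorter motif of 2 facing units 2 bases apart, chosen after the first result, was present in 24.2% of member windows and 15.1% of all windows. Of 15 textbook targets of HSF1 described below, 12 had a window, 3 of these had the longer element and 10 the shorter motif. A match is a description of the letters in the window and not of binding.

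Of the 88 members, 79 had enough counts to be tested, at least 10 in 3 or more samples. The 9 left out never exceeded 16 counts in a sample. These were Dnajb7, Dnajb8, Dnajc22, Dnajc5b, Dnajc5g, Hspb2, Hspb3, Hspb7 and Hspb9, several of them known from testis or muscle. Temperature-responsive neurons had higher levels of 14 members and lower levels of 17 at an adjusted p under 0.05 in edgeR's quasi-likelihood test, 39.2% of those tested. Over all 14407 genes tested, 30% passed, with 15.1% higher and 14.9% lower, beside 17.7% and 21.5% of members. The median log2 fold change of members was -0.06 and that of all genes 0.01, and the median size without sign was 0.23 for members and 0.31 for all genes. Members lay between -0.98 (Hspb6) and 0.84 (Dnajb9), so the largest differences were nearly 1 on the log2 scale. In 37 members (46.8%) the groups did not overlap in CPM, beside 35.9% of all genes. The summed level of all members overlapped between groups, at 8632 to 9118 CPM in temperature-responsive and 8791 to 9143 CPM in non-responsive samples.

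**Figure D1:**
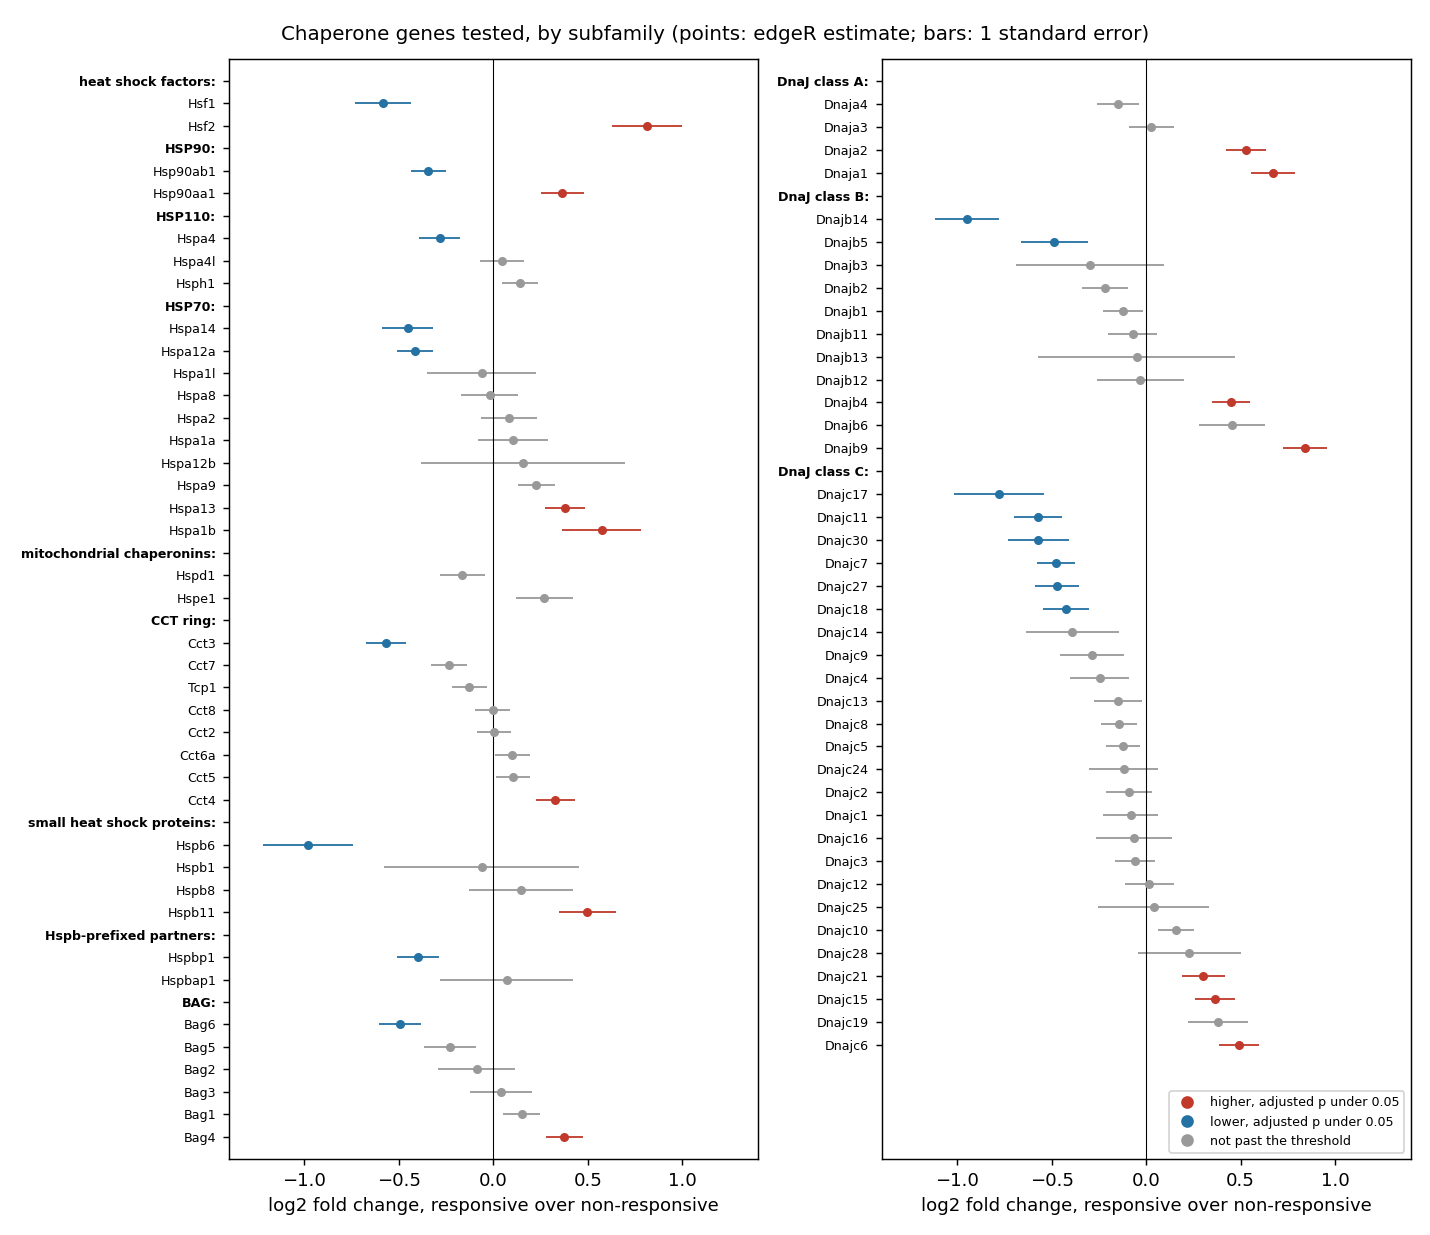
Log2 fold change (temperature-responsive over non-responsive, x axis) of the 79 chaperone genes tested, grouped by subfamily, with bars of 1 standard error and colour for the edgeR call. Both directions occur within most subfamilies, and the estimates lie between -0.98 and 0.84.

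The calls depended on single samples and on a covariate. Of the 31 members called, 16 were called in all 7 fits that left out 1 sample and 15 were not. Leaving out non-responsive replicate 3 removed 13 calls (adjusted p 0.0541 to 0.267) and left 18, non-responsive replicate 2 and temperature-responsive replicate 2 removed 6 each, temperature-responsive replicate 1 removed 5, temperature-responsive replicate 4 removed 3, non-responsive replicate 1 removed 2 and temperature-responsive replicate 3 removed 0. Calls over all genes fell too. Without non-responsive replicate 3 the share was 18.5% of all genes in place of 30%, and 23.1% of members in place of 39.2%. Over the 7 fits it was 18.5% to 32.2% of all genes and 23.1% to 40.5% of members. When the count of detected genes entered as a covariate, no member was called (lowest adjusted p = 0.0982), 7 had an unadjusted p under 0.05, and 1 of all genes was called. All 31 kept their direction in that fit, some at about the same size (Dnajb9 0.83 beside 0.84) and others much smaller (Hsf1 -0.13 beside -0.59, Hspb6 -0.36 beside -0.98). The number of genes detected did not overlap between groups, so its part and that of the group cannot be told apart.

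The differences of members also went with the base composition of their transcripts. Members called higher had a median GC content of 43.2%, members called lower 51.0% and members not called 48.1%, and over all genes tested the medians were 45.2% for those called higher and 53.9% for those called lower. Across genes, which are not independent replicates, log2 fold change and GC content had a Spearman correlation of -0.43 over the 79 members and -0.34 over 14293 genes. A fit with an offset for GC content in each sample reduced these to -0.15 and -0.07. It called 9 members higher and 18 lower, beside 11.5% and 12.3% of all genes, and 23 of the 31 members were called in the same direction. The 8 not called were Hsf2, Hsp90aa1, Hspa13, Dnajc15, Dnajc21, Cct4, Dnajb5 and Hspbp1, of which the first 6 had been called higher. The offset added 4 calls, higher for Dnajb6 and lower for Cct7, Tcp1 and Dnajc8.

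**Figure D2:**
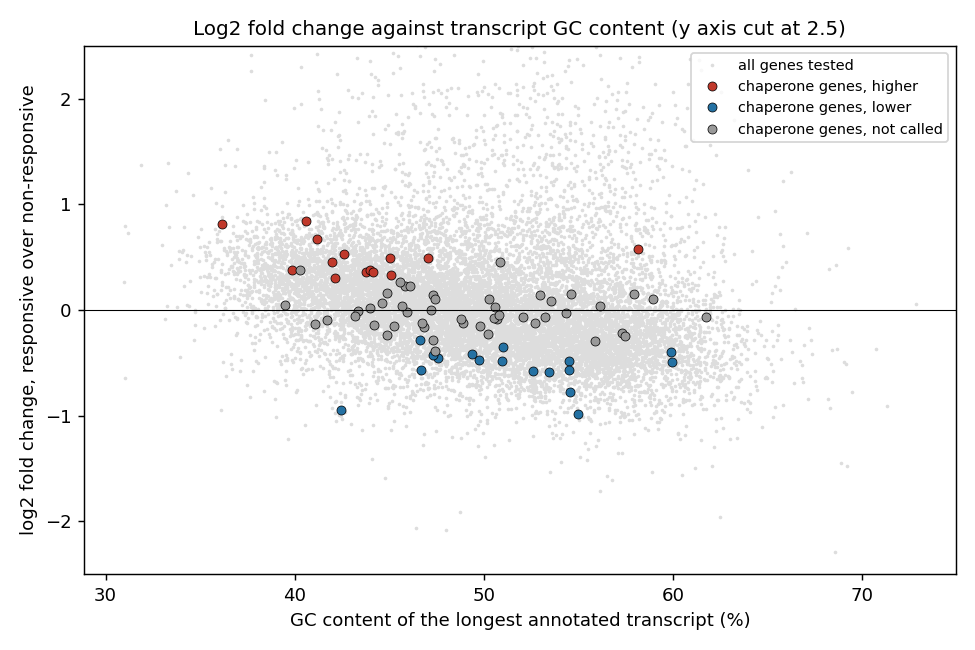
Log2 fold change (y axis) against GC content in percent of the longest annotated transcript (x axis) for all genes tested (grey dots) and chaperone genes (circles coloured by call). Members called higher (median 43.2%) sit mostly to the left of members called lower (median 51.0%), along the slope of all genes.

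The heat shock factors differed in opposite directions. Hsf1 (chr15:76477422-76501913), which encodes the main activator of the heat shock response, had 39.7, 35.5, 43.5 and 38.0 CPM in temperature-responsive samples and 47.4, 64.4 and 71.5 CPM in non-responsive samples. Every temperature-responsive sample lay under every non-responsive one (log2 fold change -0.59, SE 0.15, edgeR adjusted p = 0.00506, and -0.13 with the covariate for detected genes, adjusted p = 0.843). Hsf2 (chr10:57486385-57513135), whose product pairs with HSF1 and acts in development, had 27.4, 28.7, 34.8 and 34.8 CPM against 22.4, 18.5 and 15.6 CPM, again without overlap but with the responsive samples above (0.81, SE 0.19, edgeR adjusted p = 0.00234). Hsf1 was also called with the GC offset (edgeR adjusted p = 0.0130) whereas Hsf2, with a transcript of 36.2% GC, was not (0.50, edgeR adjusted p = 0.0558). Of the other factor genes in the co-chaperone list, Hsbp1, which encodes a protein that binds and restrains HSF1, was higher at 568.2 to 642.5 CPM against 382.0 to 523.4 CPM (log2 fold change 0.52, SE 0.12, edgeR adjusted p = 0.00188). Hsf4 and Hsf5 stayed under 10 CPM in every sample and did not pass the test.

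**Figure D3:**
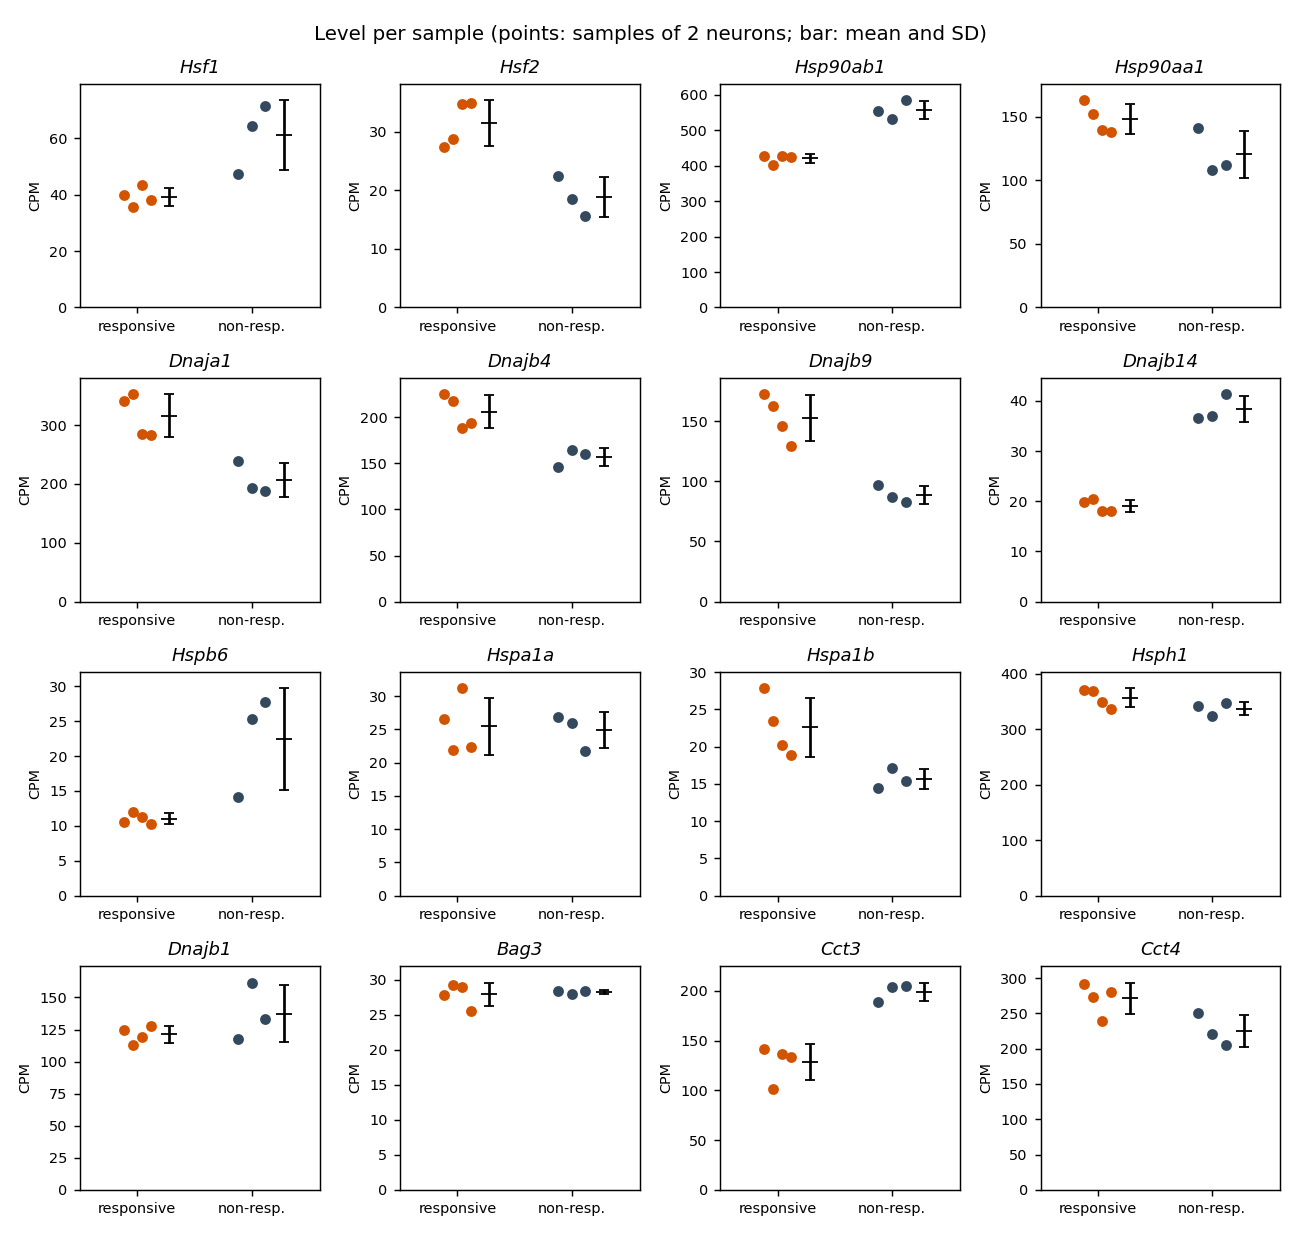
Level of 16 chaperone genes in each sample (CPM, y axis from 0, points), with the mean and SD of each group beside them, for temperature-responsive (n = 4) and non-responsive (n = 3) samples. Hsf1, Hsp90ab1, Dnajb14, Hspb6 and Cct3 were lower and Hsf2, Dnaja1, Dnajb4, Dnajb9 and Hspa1b higher in responsive samples without overlap, while Hspa1a, Hsph1, Dnajb1 and Bag3 overlapped.

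The pair of cytosolic HSP90 genes also differed in opposite directions. Hsp90ab1 (chr17:45567775-45573271), the constitutive form, had 427.0, 402.7, 428.0 and 423.9 CPM in temperature-responsive samples and 554.5, 531.9 and 584.3 CPM in non-responsive samples. The groups were well apart, with a spread of 2.84% (coefficient of variation) in the responsive group, and the difference was -0.35 on the log2 scale (SE 0.09, edgeR adjusted p = 0.00747), or -0.31 without non-responsive replicate 3 (edgeR adjusted p = 0.0559). Hsp90aa1 (chr12:110690605-110702728), the heat-inducible form, had 163.0, 152.5, 139.4 and 138.2 CPM against 141.4, 108.1 and 111.8 CPM. Non-responsive replicate 1 lay within the responsive range. Its log2 fold change of 0.36 (SE 0.11, edgeR adjusted p = 0.0181) missed the threshold without each of 4 samples (temperature-responsive replicates 1 and 2, non-responsive replicates 2 and 3, adjusted p 0.0520 to 0.120). Of the 50-base words in Hsp90aa1 transcripts, 47.5% also occurred in other genes, among them processed copies, and in Hsp90ab1 3.44% did. Per kilobase of transcript, Hsp90ab1 and Bag1 had the highest counted levels of the members. They had 166.8 and 197.2 CPM per kb in temperature-responsive and 221.0 and 185.1 in non-responsive samples, so their order differed between groups. How reads matching several genes were counted is not given in the sources used here, so this ranking is of counted reads only. Together the HSP90 genes summed to 555.2 to 590.0 CPM in responsive and 640.0 to 696.1 CPM in non-responsive samples.

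Co-chaperones that work with HSP90 were in a list of 48 pathway genes outside the symbol rule, of which 47 were in the files and 46 were tested. That list had 13 genes higher and 12 lower (54.3% called, beside 30% of all genes). A subgroup of 14 co-chaperones of HSP90 was formed after the values were seen, and so is only described. In it 2 were higher and 7 lower (14.3% and 50%, beside 15.1% and 14.9% of all genes). Its median log2 fold change was -0.44, and its summed level was 1152 to 1302 CPM against 1400 to 1550 CPM. Ahsa1, which encodes the activator of the HSP90 ATPase, had 71.1, 58.5, 88.0 and 83.5 CPM in temperature-responsive samples and 110.9, 155.9 and 146.7 CPM in non-responsive samples, without overlap (log2 fold change -0.81, SE 0.13, edgeR adjusted p = 0.000163). Also lower were Cdc37, the adaptor for kinases (-0.62, SE 0.11), Stip1, which bridges HSP70 and HSP90 (-0.56, SE 0.10), and Fkbp4, a partner of steroid receptor complexes (-0.47, SE 0.10), all with an edgeR adjusted p of at most 0.00118. Stub1, the ubiquitin ligase that tags chaperone clients, had 28.7 to 41.1 CPM against 50.8 to 68.7 CPM (-0.75, SE 0.15, edgeR adjusted p = 0.000924). Ptges3, which encodes the co-chaperone p23 of mature receptor complexes, went the other way, with 157.7, 175.5, 143.4 and 146.4 CPM in responsive and 105.2, 86.0 and 71.7 CPM in non-responsive samples (0.89, SE 0.12, edgeR adjusted p = 6.57e-05). Fkbp5, a glucocorticoid-induced partner, had 16.3 to 19.9 CPM against 15 to 23.0 CPM and did not pass the test (0.01, SE 0.21). Ruvbl2, an ATPase of the assembly complex that works with HSP90, had 19.4 to 32.3 CPM against 41.4 to 57.2 CPM (-0.87, SE 0.17, edgeR adjusted p = 0.000777).

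**Figure D4:**
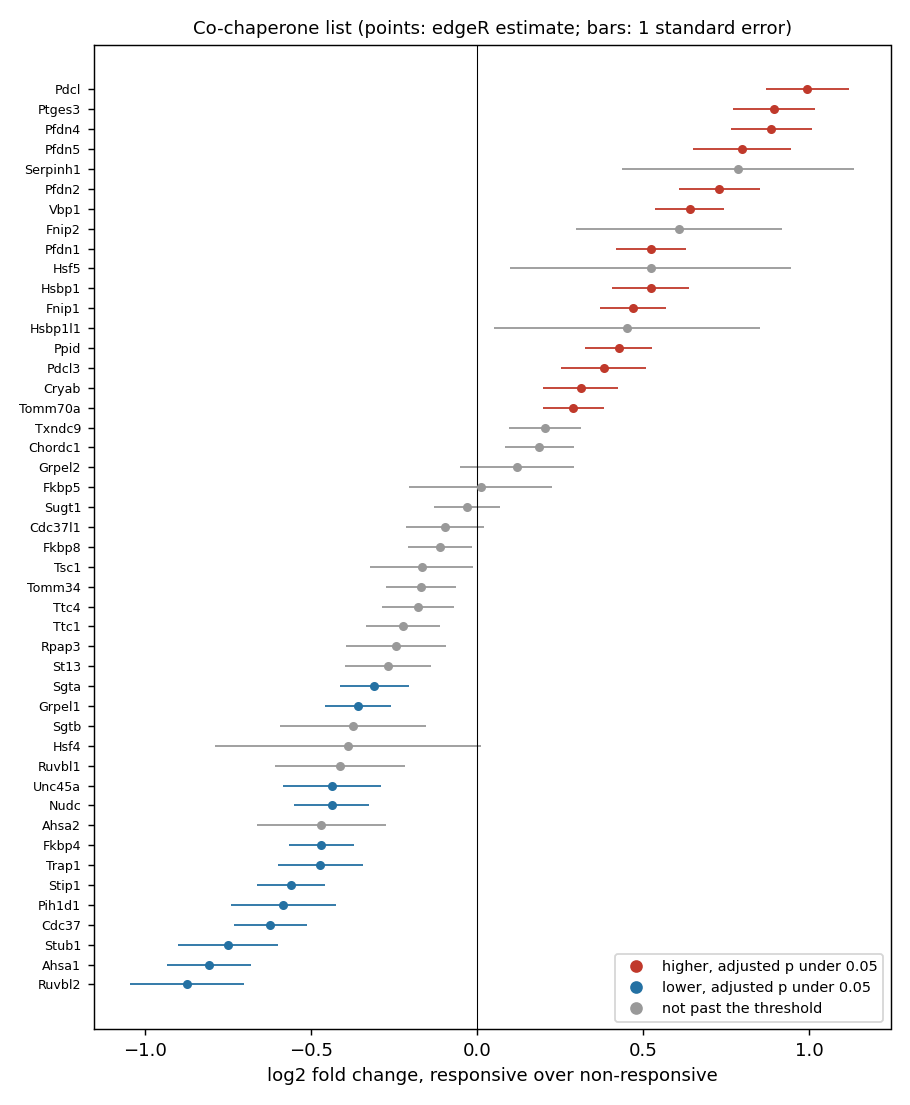
Log2 fold change (temperature-responsive over non-responsive, x axis) of the 46 co-chaperone genes tested, sorted by value, with bars of 1 standard error. Pdcl, Ptges3 and the prefoldin genes lie at the top, and Ruvbl2, Ahsa1 and Stub1 at the bottom.

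Among 10 HSP70 genes, 2 were higher (Hspa1b and Hspa13) and 2 lower (Hspa14 and Hspa12a), 20% each beside 15.1% and 14.9% of all genes. The other 6 did not pass the test. The summed level was 750.1 to 808.1 CPM in temperature-responsive and 762.1 to 795.5 CPM in non-responsive samples. The constitutive cytosolic form Hspa8 had 43.3, 39.2, 36.2 and 35.2 CPM in temperature-responsive samples and 36.6, 39.4 and 45.2 CPM in non-responsive samples. These ranges overlapped almost entirely (log2 fold change -0.02, SE 0.15, edgeR adjusted p = 0.941). Other genes shared 37.0% of the 50-base words of Hspa8, and how the authors' counting treated reads with several matches is not given in the sources used here. Its level was 12.2 CPM per kb in temperature-responsive and 12.8 in non-responsive samples. The HSP70 sum above and the ranking of Hspa9 below are therefore of counted reads only. Hspa9, the mitochondrial HSP70 and the HSP70 gene with the highest mean CPM, had 290.6, 256.5, 258.9 and 254.1 CPM against 252.9, 241.2 and 214.8 CPM, and did not pass the test (0.23, SE 0.10, edgeR adjusted p = 0.0844) although the groups did not overlap. It did pass with upper quartile scaling (0.29, edgeR adjusted p = 0.0299) and without non-responsive replicate 1 (0.29, edgeR adjusted p = 0.0390). Hspa13, a microsomal form, had 148.9 to 171.8 CPM against 114.5 to 141.7 CPM (0.38, SE 0.11, edgeR adjusted p = 0.00938), or 0.30 without non-responsive replicate 3 (adjusted p = 0.0743). Hspa14, which acts at the ribosome, had 45.1 to 49.3 CPM against 58.9 to 79.95 CPM (-0.45, SE 0.14), and -0.31 without non-responsive replicate 3 (edgeR adjusted p = 0.129). Hspa12a, a distant HSP70 relative of brain, had 120.7 to 151.7 CPM against 184.6 to 206.6 CPM (-0.41, SE 0.10, edgeR adjusted p = 0.00277).

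The strictly inducible HSP70 genes Hspa1a (chr17:34969190-34972156) and Hspa1b (chr17:34956436-34959238) are neighbouring copies that encode nearly the same protein, and 60.4% and 62.3% of their 50-base words occurred elsewhere, mostly in each other. Their promoters were identical at 199 of 200 bases before the start. That of Hspa1b is printed because both copies share it, with a pair of facing heat shock units in capitals.
Hspa1b (chr17:34959239-34959438, minus strand): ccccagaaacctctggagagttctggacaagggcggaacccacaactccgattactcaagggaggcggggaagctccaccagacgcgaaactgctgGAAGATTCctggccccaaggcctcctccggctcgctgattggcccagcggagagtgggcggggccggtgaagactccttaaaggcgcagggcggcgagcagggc
Hspa1b had 27.8, 23.5, 20.3 and 18.8 CPM in temperature-responsive samples and 14.5, 17.2 and 15.4 CPM in non-responsive samples. All responsive samples were higher (log2 fold change 0.57, SE 0.21, edgeR adjusted p = 0.0407). Hspa1a had 26.5, 21.9, 31.1 and 22.4 CPM against 26.9, 26.0 and 21.8 CPM, with the groups mixed (0.10, SE 0.19, edgeR adjusted p = 0.701). With the counts of both genes summed, an alternative chosen after the values were seen, the samples spanned 41.2 to 54.3 CPM and 37.2 to 43.1 CPM, and the difference did not pass the test (0.31, SE 0.15, edgeR adjusted p = 0.119). Hspa1b also missed the threshold without any 1 of 5 samples (both groups' replicates 1 and 2, and non-responsive replicate 3, edgeR adjusted p 0.0622 to 0.146).

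Of the 3 HSP110 genes, which exchange nucleotide on HSP70, none was called higher and only Hspa4 lower (0% and 33.3%, beside 15.1% and 14.9% of all genes). Hsph1, the inducible and most abundant of them, had 371.0, 369.3, 349.1 and 335.8 CPM in temperature-responsive and 340.9, 323.1 and 347.3 CPM in non-responsive samples. These overlapped (0.14, SE 0.10, edgeR adjusted p = 0.277). The heat shock element of Hsph1 printed above lies after the annotated start, at bases 37 to 49 or 16 to 28 depending on the start used. Hspa4l had 165.5 to 234.5 CPM against 172.0 to 217.9 CPM and did not pass the test either (0.05, SE 0.12, edgeR adjusted p = 0.804). Hspa4 had 93.5 to 116.6 CPM against 116.1 to 140.9 CPM (-0.28, SE 0.11, edgeR adjusted p = 0.0445). Its groups touched, and its call was lost without any 1 of 5 samples (all but temperature-responsive replicate 3 and non-responsive replicate 3, adjusted p 0.0710 to 0.203).

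Of the 45 DnaJ genes, 40 were tested. Of those, 7 were higher (17.5%, beside 15.1% of all genes) and 8 lower (20%, beside 14.9%). Dnajb9 had the largest rise of all members. Class A stood apart in its sum, at 868.8 to 993.5 CPM in temperature-responsive and 656.9 to 770.8 CPM in non-responsive samples. Dnaja1 (chr4:40722150-40737149), an inducible partner of HSP70, had 341.4, 352.1, 285.0 and 283.2 CPM against 239.6, 192.6 and 187.7 CPM (log2 fold change 0.67, SE 0.12, edgeR adjusted p = 0.000315). Its close relative Dnaja2 (chr8:85537633-85555344) had 480.9, 508.7, 431.7 and 428.5 CPM against 363.5, 326.4 and 312.8 CPM (0.53, SE 0.10, edgeR adjusted p = 0.000782). In both genes every responsive sample was above every non-responsive sample, in all fits that left out 1 sample they were called, and they were called with the GC offset too (adjusted p = 0.00191 and 0.00500). Dnaja3 of mitochondria (0.03, SE 0.12) and Dnaja4 (-0.15, SE 0.11) did not pass the test. Exons of other genes, with Wdr61 the largest part, overlap 44.1% of Dnaja4, so its counts are uncertain.

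In class B, 2 of 11 genes tested were higher and 2 lower (18.2% each, beside 15.1% and 14.9% of all genes). Dnajb9 (chr12:44205559-44210326), an HSP40 of the endoplasmic reticulum that the unfolded protein response induces, had 172.2, 162.4, 145.6 and 129.3 CPM in temperature-responsive samples and 97.0, 86.6 and 82.6 CPM in non-responsive samples. Its groups were well apart (0.84, SE 0.12, edgeR adjusted p = 6.57e-05) and was called in every fit that left out 1 sample (0.76 to 0.93). Dnajb14 (chr3:137867675-137916557), an endoplasmic reticulum membrane HSP40, went the other way, at 19.9, 20.4, 18.1 and 18.1 CPM against 36.6, 37.1 and 41.3 CPM (-0.95, SE 0.17, edgeR adjusted p = 0.000396). Its transcript, with 42.4% GC, was the least GC-rich of the members called lower, and with the GC offset its log2 fold change was -1.11. Dnajb4, an inducible HSP40, had 224.8, 217.8, 188.3 and 193.6 CPM against 145.9, 164.9 and 159.7 CPM, without overlap (0.45, SE 0.10, edgeR adjusted p = 0.00193). Dnajb1, the classical heat-induced HSP40, had 125.0, 112.8, 119.1 and 127.9 CPM against 117.5, 161.6 and 133.0 CPM, and its groups overlapped (-0.12, SE 0.11, edgeR adjusted p = 0.409). Dnajb6, a suppressor of aggregation with the heat shock element printed above, had 27.4 to 29.9 CPM against 19.9 to 24.2 CPM, apart but just over the threshold (0.45, SE 0.17, edgeR adjusted p = 0.0506), and just under it with the GC offset (0.48, edgeR adjusted p = 0.0445). Dnajb5 had 20.3 to 37.3 CPM against 38.7 to 44.8 CPM (-0.49, SE 0.18, edgeR adjusted p = 0.0395) and lost its call without any 1 sample other than temperature-responsive replicate 3 and non-responsive replicate 1 (adjusted p 0.0521 to 0.139).

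Class C members share little more than the J domain and serve many compartments. Of 25 genes tested, 3 were higher and 6 lower (12% and 24%, beside 15.1% and 14.9% of all genes). The class C sum was 2124 to 2247 CPM in temperature-responsive and 2262 to 2400 CPM in non-responsive samples. Dnajc6, the neuronal auxilin that uncoats clathrin vesicles, had 380.2, 457.0, 351.3 and 369.9 CPM against 310.0, 275.9 and 281.0 CPM (0.49, SE 0.11, edgeR adjusted p = 0.00156). Dnajc5, the cysteine string protein of synaptic vesicles, had 263.8 to 295.0 CPM against 313.4 to 334.8 CPM and did not pass the test (-0.12, SE 0.09, edgeR adjusted p = 0.332), with groups apart in CPM on library totals. The largest falls were Dnajc17 at 9.78 to 12 CPM against 15.1 to 25 CPM (-0.78, SE 0.24, or -0.55 with adjusted p = 0.146 without non-responsive replicate 2), Dnajc11 of the mitochondrial membrane at 41.8 to 54.0 CPM against 71.3 to 84.3 CPM (-0.57, SE 0.13) and Dnajc30 of mitochondria at 21.4 to 27.8 CPM against 36.1 to 41.1 CPM (-0.57, SE 0.16). Exons of other genes, with Bud23 the largest part, overlap 26.25% of Dnajc30, so its counts are uncertain. Dnajc7, an HSP70 and HSP90 co-chaperone, had 113.9 to 138.2 CPM against 165.9 to 193.9 CPM (-0.48, SE 0.10, edgeR adjusted p = 0.00119). Dnajc27 and Dnajc18 were lower as well (-0.47, SE 0.12, and -0.42, SE 0.12), and Dnajc15 and Dnajc21 higher (0.36, SE 0.11, and 0.30, SE 0.11). Of these 4, Dnajc18, Dnajc15 and Dnajc21 lost the call without non-responsive replicate 3 (adjusted p = 0.0541, 0.0747 and 0.267), and Dnajc21 also without temperature-responsive replicate 1, 2 or 4 (0.0738 to 0.129).

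**Figure D5:**
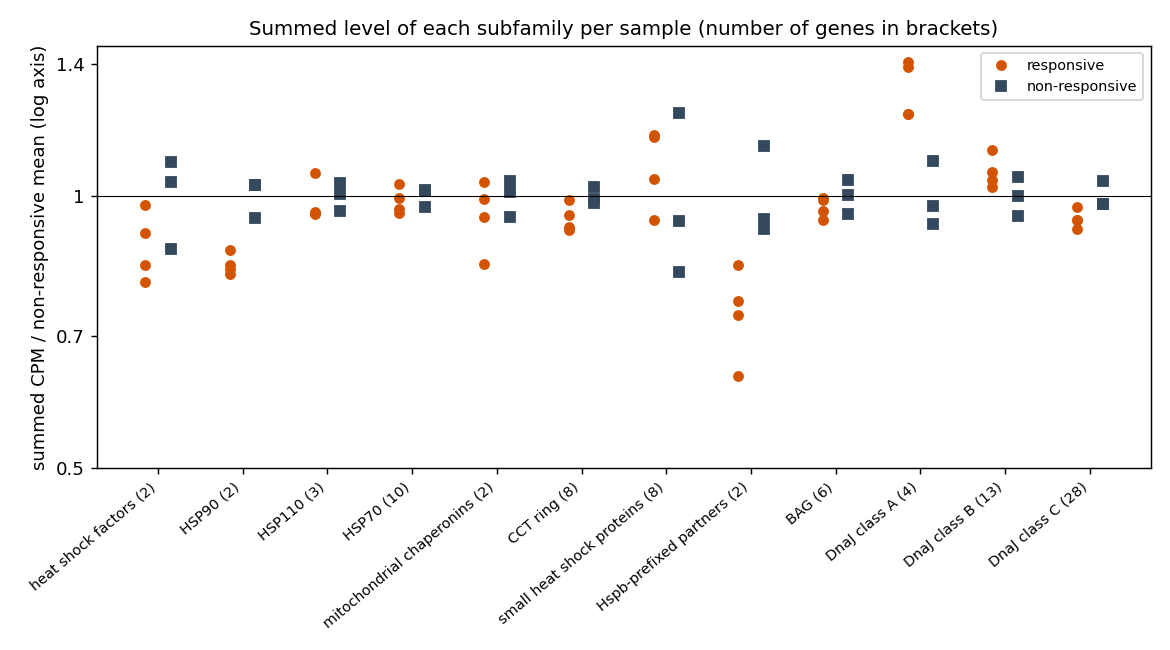
Summed CPM of each chaperone subfamily in each sample, divided by the mean of the non-responsive samples (log axis), for temperature-responsive (circles, n = 4) and non-responsive (squares, n = 3) samples. DnaJ class A was above the non-responsive samples without overlap (868.8 to 993.5 against 656.9 to 770.8 CPM), and HSP90 and the Hspb-prefixed partners were below. DnaJ class C was below by a narrow gap (2124 to 2247 against 2262 to 2400 CPM), on library totals without the scaling used in the test.

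BAG proteins release HSP70 clients through their BAG domain. Of 6 genes, 1 was higher and 1 lower (16.7% each, beside 15.1% and 14.9% of all genes). Bag3, the inducible member that steers aggregates to autophagy, lay in a narrow range in all samples, at 27.8, 29.3, 29.0 and 25.6 CPM in temperature-responsive and 28.4, 27.9 and 28.4 CPM in non-responsive samples (0.04, SE 0.17, edgeR adjusted p = 0.876). Bag1, the BAG gene with the highest mean CPM in both groups, had 251.6 to 289.4 CPM against 231.6 to 270.7 CPM and did not pass the test (0.15, SE 0.10, edgeR adjusted p = 0.250). Bag4 was higher at 163.8 to 185.5 CPM against 122.9 to 150.6 CPM (0.38, SE 0.10, edgeR adjusted p = 0.00629, or 0.0614 without non-responsive replicate 3). Bag6, which guards membrane proteins on their way to the endoplasmic reticulum, was lower at 90.9 to 127.1 CPM against 148.4 to 173.7 CPM (-0.49, SE 0.11, edgeR adjusted p = 0.00190). Hspbp1, which removes nucleotide from HSP70, had 69.0 to 88.1 CPM against 103.6 to 122.7 CPM (-0.40, SE 0.11, edgeR adjusted p = 0.00934), and its call was lost with the GC offset (-0.18, adjusted p = 0.217) and without non-responsive replicate 3 (adjusted p = 0.0676).

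The 8 subunits of the CCT ring assemble in equal number. In the main fit 1 was higher and 1 lower (12.5% each, beside 15.1% and 14.9% of all genes), and 6 did not pass. The summed level was 1868 to 2015 CPM in temperature-responsive and 1998 to 2085 CPM in non-responsive samples. Cct3 (chr3:88297116-88321767) had 141.8, 101.9, 136.5 and 133.6 CPM in temperature-responsive and 188.6, 203.9 and 205.1 CPM in non-responsive samples, far apart (-0.57, SE 0.10, edgeR adjusted p = 0.000491). Cct4 (chr11:22990519-23003780) had 291.5, 273.2, 239.4 and 280.3 CPM against 249.9, 220.7 and 205.5 CPM, with temperature-responsive replicate 3 inside the other range (0.33, SE 0.10, edgeR adjusted p = 0.0186), and missed the threshold without non-responsive replicate 2 or 3 (adjusted p = 0.0821 and 0.124). Cct8, with the highest mean CPM of the ring, had 294.8 to 328.1 CPM against 304.3 to 344.4 CPM (-0.0043, SE 0.10, edgeR adjusted p = 0.979). The remaining estimates ran from -0.23 for Cct7 to 0.11 for Cct5. With the GC offset the ring had 0 subunits higher and 3 lower, beside 11.5% and 12.3% of all genes. Cct7 (-0.33, edgeR adjusted p = 0.00835) and Tcp1 (-0.32, edgeR adjusted p = 0.00935) were then called and Cct4 was not (0.23, edgeR adjusted p = 0.0723). Prefoldin, which delivers actin and tubulin to the ring, was represented in the co-chaperone list by 5 genes, described as a subgroup after their values were seen. All 5 were higher (log2 fold change 0.52 to 0.89), beside 15.1% of all genes. They summed to 1175 to 1349 CPM in temperature-responsive and 708.5 to 949.4 CPM in non-responsive samples. With the GC offset all 5 were still called, from 0.29 (Vbp1, 0.64 in the main fit) to 0.90 (Pfdn5). None was called with the covariate for detected genes (edgeR adjusted p 0.1695 to 0.371). Pfdn4 had 198.3, 211.0, 184.3 and 186.2 CPM against 135.4, 108.1 and 88.0 CPM (0.89, SE 0.12, edgeR adjusted p = 7.25e-05). Pdcl, a phosducin-like protein that works with the ring on G protein subunits, had 105.1, 105.0, 93.8 and 86.3 CPM against 51.4, 54.6 and 46.9 CPM, and was the largest rise of the list (0.99, SE 0.12, edgeR adjusted p = 4.69e-05).

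The small heat shock protein genes named by the symbol rule were scarce, while Cryab, outside the rule, was not. Of 8 genes, 4 were tested and the summed level was 68.6 to 102.8 CPM over all samples. Hspb6 (chr7:30552178-30555443), a small heat shock protein best known from muscle, had 10.6, 12, 11.2 and 10.3 CPM in temperature-responsive and 14.2, 25.4 and 27.8 CPM in non-responsive samples. The groups were apart, with non-responsive replicate 1 close to the responsive range (-0.98, SE 0.24, edgeR adjusted p = 0.00358, and -0.36 with the covariate for detected genes, adjusted p = 0.727). Hspb11, which carries the family name but is a component of intraflagellar transport, had 44.6, 57.5, 42.7 and 48.3 CPM against 36.6, 37.5 and 32.5 CPM (0.50, SE 0.15, edgeR adjusted p = 0.0147), and lost the call without temperature-responsive replicate 2 or non-responsive replicate 3 (adjusted p = 0.0645 and 0.0663). Hspb1 (HSP27) had only 3 to 25 counts per sample, close to the floor, and its difference was not detectable at this depth (-0.06, SE 0.52). Hspb8, the partner of Bag3, had 14.1 to 22.0 CPM against 11.3 to 29.1 CPM (0.15, SE 0.28, edgeR adjusted p = 0.721). The crystallin gene Cryab from the co-chaperone list, abundant in glia, also encodes a small heat shock protein. In every sample it lay above the summed level of the 8 genes. It had 310.8 to 394.8 CPM against 261.8 to 330.6 CPM, overlapping (0.31, SE 0.11, edgeR adjusted p = 0.0399). Its call was lost without any 1 of 5 samples (all but temperature-responsive replicate 4 and non-responsive replicate 1, adjusted p 0.0532 to 0.190).

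The mitochondrial chaperonin genes printed above did not pass the test. Hspd1 had 67.1, 56.4, 64.5 and 62.5 CPM in temperature-responsive and 73.4, 75.9 and 70.5 CPM in non-responsive samples (-0.16, SE 0.12, edgeR adjusted p = 0.319). Hspe1 had 48.1, 37.1, 46.0 and 43.0 CPM against 42.3, 36.5 and 34.9 CPM (0.27, SE 0.15, edgeR adjusted p = 0.179). So 2 genes that share a promoter had estimates of opposite sign, neither past the threshold, and the difference between them was not tested. Processed copies and other genes held 39.7% and 18.4% of their 50-base words.

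The 15 members listed as textbook targets of HSF1 were all tested. They are not all strictly inducible, since Hsp90ab1 and Hspa8 are the constitutive forms of their families. Those higher were Hspa1b, Hsp90aa1, Dnaja1 and Dnajb4 (26.7%, beside 15.1% of all genes), the 1 lower was the constitutive Hsp90ab1 (6.67%, beside 14.9%), and the other 10 did not pass the test. Their median log2 fold change was 0.10 and their summed level was 1925 to 2145 CPM in temperature-responsive and 1926 to 1968 CPM in non-responsive samples, which overlapped. Among the 10 were Hsph1, Dnajb1, Bag3, Hspa8, Hspa1a, Hspd1, Hspe1, Hspb1, Hspb8 and Hspa4l, with estimates from -0.16 to 0.27. Taking length into account, tested members spanned 0.908 to 192.0 CPM per kb, with a median of 27.0. The median coefficient of variation between samples was 10.5% in temperature-responsive and 8.89% in non-responsive samples.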

How the data were processed

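RNA of 2 pooled neurons per sample was amplified with the SMART-seq V4 kit and libraries were made with Nextera XT. The authors aligned reads to mm10 with STAR 2.6.0, removed duplicates with RmDup, counted reads per gene symbol with HTSeq 0.9.1 and deposited these counts without normalization. Reads carried no molecular identifiers, so removal of duplicates can also remove distinct molecules of abundant genes. The annotation, strandedness and rule for overlapping genes are not given in the sources used here, so overlapping genes and near-identical copies are uncertain. No file had rows that name no gene. Samples were grouped and numbered by their labels.

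From the deposited counts, the 14407 genes that reached 10 counts in 3 or more samples entered a fit in edgeR 4.0.16 and R 4.3.3 (quasi-likelihood test, robust, TMM, two-sided, no covariates), with Benjamini-Hochberg adjustment over all of them and a threshold of 0.05. Levels of CPM used the total of each sample. Alternatives were DESeq2 1.42.0, limma 3.58.1 (voom), other scalings and filters, a covariate, a GC offset made with mgcv 1.9.3, a block for the replicate number, and fits that left out 1 sample each. Coordinates, GC content (98.4% of symbols matched), exon overlap and 50-base words shared with other genes came from GENCODE M21 on GRCm38, the build called mm10, and promoter windows from RefSeq on GRCm38.p6.

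Same-group pairs of samples differed by more than counting noise (chi-square per degree of freedom 2.01 to 5.16). Each was counted as 1 sample by its label. The chi-square cannot show whether samples came from separate mice, since separate libraries of 1 source can also exceed counting noise. The members, gene lists and tests were chosen with earlier results of these data known. The genes named were the 15 textbook targets of HSF1, Hsf1 and Hsf2, the 6 largest rises and 6 largest falls among members called without overlap, the 3 largest rises and falls of the co-chaperone list, and the member of each subfamily with the highest mean CPM over all samples. All others were named after their values were seen.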

Additional observations from a re-analysis of the deposited data

Results flagged for a closer look

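Among the 4 temperature-responsive samples, 1 sample stood far from the other 3 in 4 of 49 values examined, taken as the gap to its neighbour divided by the range of the group, above the critical value of the Dixon test for 4 samples. For Hsp90ab1 this ratio was 0.836, with temperature-responsive replicate 2 lowest at 402.7 CPM. For Hspa9 it was 0.867, with temperature-responsive replicate 1 highest at 290.6 CPM. The summed level of the 3 HSP110 genes gave 0.956 and that of all 88 members 0.853, both with temperature-responsive replicate 1 highest, at 699.9 and 9118 CPM. Chance alone sets about 1 in 20 groups apart in this way, and the non-responsive group of 3 was not examined. Without temperature-responsive replicate 1, 28 members were called in place of 31 (35.4% of those tested, beside 27.5% of all genes).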

How the results depend on the processing

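Beside the 31 chaperone genes called in the main fit, DESeq2 called 27 members in all, limma-voom 31, and the other scalings and filters between 28 and 32. These were 34.2%, 39.2% and 31.8% to 42.7% of members tested, beside 26.4%, 30.6% and 24.7% to 33.1% of all genes. The covariate for detected genes left 0 members called (0 higher, 0 lower) and 0 co-chaperone genes, beside 1 of all genes. The GC offset left 9 members higher, beside 11.5% of all genes. The replicate block with the GC offset left 20 members (7 higher, 25.6% called) and 16 co-chaperone genes, beside 19.3% of all genes called. Leaving out 1 sample gave 18 to 32 members, 6 to 16 higher and 12 to 17 lower, and 20 to 27 co-chaperone genes. The members called were 23.1% to 40.5% of those tested, beside 18.5% to 32.2% of all genes. The cause of these differences was not tested. In every setting run, all called members kept their direction, except that the pair Hspa1a and Hspa1b has no separate values when summed. The replicate block, over replicates 1 to 3 of both groups, called 30 members (38.5%, beside 29.3% of all genes). Same-numbered samples are different neurons and their deviations did not go together (correlations -0.13, -0.06 and 0.03), so the number was not taken as a pairing. Counts drawn down to the smallest library, an alternative chosen after seeing the data, gave 29 members (37.7%, beside 27.2% of all genes).

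Members near 0 changed sign under some settings, with no value past the threshold under any of these. Under upper quartile scaling Hspa8 was 0.048, Hspb1 0.0038 and Cct8 0.062. With library size only, Hspa4l was -0.0097 and Bag3 -0.011. With all genes of at least 1 count kept, Hspa4l was -0.045 and Bag3 -0.050, and with at least 10 counts in every sample, Hspa8 was 0.0054 and Cct8 0.020. With the covariate for detected genes, Hspa8 was 0.26, Hspb1 0.26, Hspb8 -0.13, Dnajb1 9.5e-06, Bag1 -0.0091 and Cct8 0.080. With the GC offset Hspa4l was -0.19 and Hspb1 0.18, and with the replicate block and the offset Hspa4l was -0.24. With the replicate block alone Hspa8 was 0.043 and Cct8 0.033. Cct8 was 0.0033 with DESeq2 and 0.0041 with its size factors, and with counts drawn down Cct8 was 0.064 and Bag3 -0.031. Leaving out 1 sample gave -0.10 to 0.069 for Hspa8, -0.089 to 0.13 for Hspa4l, -0.29 to 0.11 for Hspb1, -0.11 to 0.74 for Hspb8, -0.21 to 0.0047 for Dnajb1 and -0.055 to 0.034 for Cct8. Hspb8 at 0.74, without non-responsive replicate 2, was past the threshold. So were Hspa9 with upper quartile scaling (0.29), the replicate block (0.27), counts drawn down (0.28) and without non-responsive replicate 1 (0.29), and Bag1 with the replicate block and the GC offset (0.33).

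Samples of 2 neurons and 1914497 to 5125280 counts limit what can be seen in scarce members such as Hspb1, and the groups differ in total counts and in detected genes. No scaling moved the median of all genes by over 0.1 on the log2 scale.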
